A study of Drosophila melanogaster with 3 samples.

Results

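The 500 strongest peaks of tagged Phol are the places in the Drosophila melanogaster genome where this protein gave the highest signal in whole embryos. They were chosen by the authors' signal value, as the 500 highest on the list of peaks that the authors kept for repeating between replicates, the reproducible list, which holds 9764 others. The chromatin came from embryos of mixed sex aged 0 to 16 h that carried a transgene of phol fused at the C-terminal end to green fluorescent protein (phol-eGFP). It was immunoprecipitated through the tag with an anti-GFP antibody in 3 biological replicates, which form a single group with no other condition, genotype or stage. The labels do not give the promoter of the transgene or the state of the endogenous phol gene. Signal values ran from 17120 at rank 1 to 2559 at rank 500, and the next peak had 2556, so the limit of 500 falls at no gap. A peak is named by the gene with the nearest start. Read depth is not given in the peak lists, and the precision of a single peak is unknown.

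Phol (Pleiohomeotic-like) is a zinc-finger protein of the Polycomb group and a paralog of Pleiohomeotic (Pho). Both bind DNA at a core of GCCAT, with the longer form GCCATNTT (N is any base) as the favoured site, called the extended site here. Polycomb group proteins are known for keeping developmental genes such as the Hox genes silent. Pho and Phol bring repressive complexes to DNA elements of those genes, and have also been mapped to many promoters.

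Of the 6 words searched, the extended site had the largest difference in share between these peaks and weaker ones. The lines show it in capitals in 7 strong peaks, in 30 bases read 5′ to 3′ on the strand that reads GCCATNTT, from the release 6 genome (dm6). Of these 7, all but the mir-iab-8 peak lie at promoters. They are not all of the strong peaks with the site, some of which lie in gene bodies.
Uhg2, a snoRNA host gene, rank 3 (chr2L:9895035-9895064, minus strand): gatagttggccGCCATCTTttcacagaatt
CTCF, an insulator protein gene, rank 7 (chr3L:7356683-7356712, minus strand): tgctacatgtcGCCATCTTttattagaaat
Ndf, a nucleosome factor gene, rank 9 (chr2L:10003800-10003829, minus strand): agcaggcgggcGCCATTTTggctggcaatc
osa, a subunit gene of the Brahma remodelling complex, rank 11 (chr3R:17718600-17718629, plus strand): tactctgggacGCCATCTTtattgcggtat
RpS30, a ribosomal protein gene, rank 14 (chr3R:20850577-20850606, plus strand): gataattctgcGCCATCTTtctttttcggg
mir-iab-8, in the bithorax complex, rank 17 (chr3R:16869527-16869556, minus strand): ccatcaatgttGCCATCTTtgtcgcgcggc
CG10555, rank 20 (chrX:8398704-8398733, plus strand): tcgtcatgcaaGCCATATTatgttgtcatt

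A pair of sites can stand at a single summit. Of the 500 peaks, 5 held 2 or more extended sites within 50 bp of the summit, at mir-iab-8 (rank 17), dhd (rank 52), ova (rank 143), t-cup (rank 316, with 3 sites) and corto (rank 330). The 101-base windows at the summits of mir-iab-8, ova and corto are printed on the plus strand, with each site in capitals in the direction it is read there. The summit named mir-iab-8 lies upstream of the mir-iab-8 start, in the body of another gene.
mir-iab-8, gene body, 13199 bp from the nearest start (chr3R:16869491-16869591): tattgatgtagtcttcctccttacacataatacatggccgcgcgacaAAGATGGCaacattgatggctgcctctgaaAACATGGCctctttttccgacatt
ova, gene body, 1087 bp from the start (chr2L:10230555-10230655): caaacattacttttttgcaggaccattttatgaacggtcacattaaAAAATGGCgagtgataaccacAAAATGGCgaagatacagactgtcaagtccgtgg
corto, a Polycomb group gene, promoter (chr3R:5087256-5087356): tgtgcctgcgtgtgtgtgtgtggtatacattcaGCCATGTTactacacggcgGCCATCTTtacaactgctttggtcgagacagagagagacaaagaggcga

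Other promoter words were rare. The DNA replication-related element TATCGATA, bound by the factor DREF, stood within 50 bp of the summit at 20 of the 500. The lines show it in capitals at 2 genes of chromatin proteins, Cp190 and Scm. At Cp190 the core GCCAT follows it directly, with no extended site in the window, and Scm also holds an extended site.
Cp190, rank 22 (chr3R:15275227-15275256, plus strand): cgctcggcagcTATCGATAgccatgcgata
Scm, rank 27 (chr3R:9637620-9637649, plus strand): atctttgcgcaTATCGATAgttgcttacct

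All 500 peaks repeated across the replicates, with their order kept best at the top. Every one had a peak in each of the 3 replicate lists of 30000, counting summits within 250 bp. The lowest place any of them took was 723 in replicate 1, 706 in replicate 2 and 641 in replicate 3, the first of these still within the strongest 2.41% of a list. In all, 413 (82.6%) stood among the strongest 500 of all 3 replicates, 72 fell outside in 1 replicate, 15 in 2, and 0 in all 3. The 300 highest-ranked were all inside in every replicate, and of ranks 301 to 500 there were 113. Conversely, 25 other reproducible peaks were among the strongest 500 of every replicate. These values describe the choice, since the signal came from the same reads pooled.

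**Figure D1:**
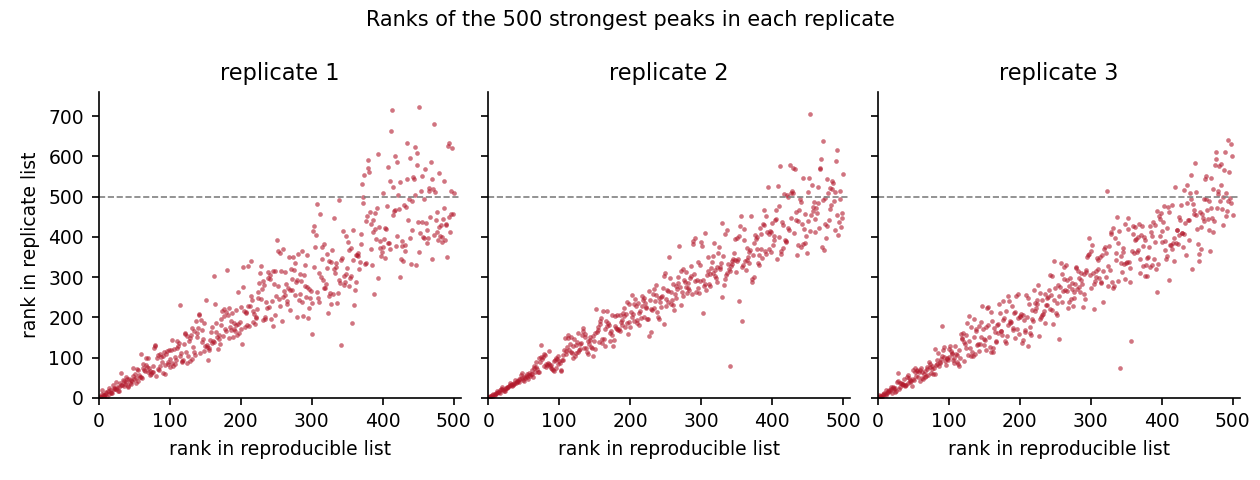
Rank of each of the 500 strongest peaks in the replicate list (vertical axis, 1 is strongest) against its rank in the reproducible list (horizontal axis), a point per peak and a panel per replicate; the dashed line marks rank 500. Points fan out with rank, and those above the line belong to ranks beyond 300, with 723 the lowest place in any replicate.

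The peaks whose replicate places differed most lay near the limit. lncRNA:CR43963, a long noncoding RNA gene, held the widest range, at places 716, 358 and 381 in replicates 1, 2 and 3. Su(z)12, a subunit gene of Polycomb repressive complex 2, stood at 605, 524 and 263. Replicate 1 gave the lowest place for both. Piezo, which encodes a mechanosensitive channel, was lowest in replicate 2 (410, 706 and 358). Raf, a kinase gene of the Ras pathway, stood at 723, 440 and 383, and gammaTub23C, a gamma-tubulin gene, at 681, 368 and 520. Across the 500 the median range between the best and worst of the 3 places was 72.5. Just inside the limit were MFS10, MED27, Pits, GCS2beta and lncRNA:CR42657 (signal values 2567 to 2559), and just outside were RpL23A, PIG-Q, lama, by and foxo (2556 to 2545).

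A group of strong peaks surrounded phol itself, the gene that is tagged in these embryos. Within 50 kb of the phol start on 3L there were 6 of the 500, at Jarid2 (rank 8), CG3552 (rank 43), Atat (rank 122), aay (rank 131) and CG44838 (ranks 190 and 476). The median coding gene had 0 of the 500 within that distance, and 18 of 13945 genes (0.129%) had at least 6. How much DNA around phol the transgene carries is not stated in the labels, and its part in these peaks was not tested. Without these 6 peaks, 74.3% of the remaining 494 lay at promoters and 26.9% held the extended site.

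The strongest peaks were promoter peaks in most cases. An annotated transcript start stood within 500 bp of 373 of the 500 summits (74.6%, 95% Wilson interval 70.6 to 78.2), against 49.5% of the whole reproducible list. The other 9764 reproducible peaks had 48.2%, a difference of 26.4 percentage points (Newcombe 95% interval 22.3 to 30.1). The difference between the strongest 500 of a replicate and its next 9764 ranks was 23.8 points in replicate 1, 26.5 in replicate 2 and 28.8 in replicate 3, with a mean of 26.3 ± 2.50 (SD, n = 3). It had the same direction in 3 of 3 replicates, where an exact two-sided sign-flip permutation test gives p = 0.25, the smallest p that 3 replicates allow. The intervals cover counting error only and treat neighbouring peaks as independent.

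Summits inside genes and between genes were the classes that gave way. Introns and other parts of gene bodies held 94 of the 500 (18.8%) against 33.1% of the other peaks, a difference of -14.3 points (interval -17.6 to -10.5). Intergenic summits numbered 26 (5.20%) against 17.0%, a difference of -11.8 points (-13.6 to -9.41). Both were lower in 3 of 3 replicates (exact sign-flip permutation test, two-sided p = 0.25). The remaining summits were 4 in 3′ UTRs, 2 in 5′ UTRs and 1 in a coding exon, nearest to t-cup, and for each of these classes the interval of the difference from the other peaks included 0.

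**Figure D2:**
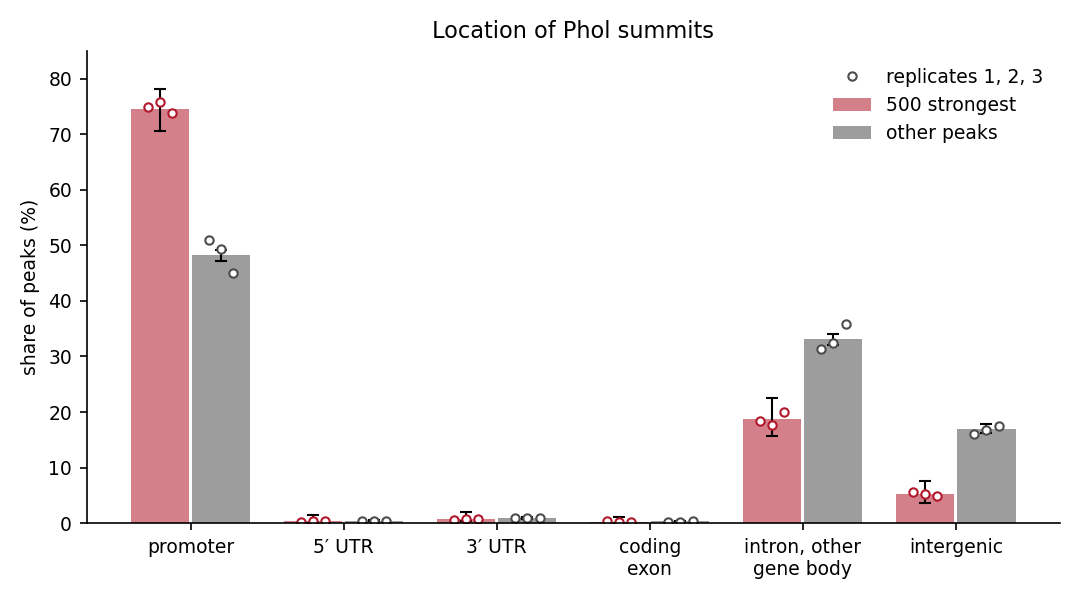
Share of summits (percent, vertical axis from 0) in each location class for the 500 strongest peaks (red) and the other 9764 reproducible peaks (grey); bars are the reproducible list with 95% Wilson intervals, and open points are the strongest 500 and the next 9764 ranks of replicates 1, 2 and 3. Promoters take 74.6% of the strongest peaks and 48.2% of the others, and the replicate points of both groups do not overlap in the promoter, intron and intergenic classes.

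The promoter share was highest at the top. It was 84.0% in ranks 1 to 100, 81.0% in the next 100 ranks, and 69.0%, 68.0% and 71.0% in the 3 sets of 100 after these. The 500 peaks that followed had 64.4%, which was 10.2 points lower than the strongest 500 (95% interval of the difference 4.50 to 15.8). Among the 373 promoter peaks, 150 (40.2%) had coding starts on both strands within 500 bp, against 33.8% of the 4707 other promoter peaks. This difference of 6.43 points (1.40 to 11.7) was in the same direction in 3 of 3 replicates, at 40.7% ± 2.00 against 33.7% ± 0.948 (SD, n = 3; exact sign-flip permutation test, two-sided p = 0.25). A promoter peak had 1 coding gene within 500 bp in 202 cases, 2 in 149, 3 or more in 5, and none in 17.

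The extended site was far more frequent at the strongest summits. It stood within 50 bp of the summit in 133 of the 500 (26.6%, 95% Wilson interval 22.9 to 30.6), against 6.63% of all reproducible peaks. The other 9764 had 5.61%, and the difference was 21.0 points (17.3 to 25.1). The strongest 500 of replicates 1, 2 and 3 gave 23%, 23.2% and 28.2%, and their next 9764 ranks gave 4.85%, 5.23% and 6.41%. The mean difference was 19.3 points ± 2.16 (SD, n = 3), in the same direction in 3 of 3 replicates (exact two-sided sign-flip permutation test, p = 0.25). In windows 500 bp to either side of the strongest summits the share was 1.60%, and 1.90% beside the other summits.

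The excess was steepest at the very top. In successive sets of 100 among the 500, 44.0%, 34.0%, 19.0%, 22.0% and 14% held the extended site. The next 500 ranks had 9.60%, which is 17.0 points lower than the strongest 500 (12.3 to 21.6). The core GCCAT was not detectably more frequent in the rest. Of the 367 strongest peaks without an extended site, 56 (15.3%, 11.9 to 19.3) held a core, against 13.8% (13.1 to 14.5) of the 9216 other peaks without one.

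For words of other factors the interval of each difference included 0. TATCGATA stood in 4.0% against 3.06% of the other peaks, with a difference of 0.938 points (-0.504 to 3.06). It was higher in 3 of 3 replicates, by 0.421, 1.22 and 1.34 points (exact two-sided sign-flip permutation test, p = 0.25). Among promoter peaks alone it was 5.09% against 5.99% (difference -0.897, interval -2.84 to 1.90), higher in 1 of 3 replicates. GGTCACAC, the Motif 1 word bound by M1BP, stood in 1.80% against 2.04% (difference -0.238, interval -1.14 to 1.37). GAGAGAG, read by the GAGA factor, stood in 1.00% against 1.15%, and CAGGTAG, the site of the early activator Zelda, in 0.400% against 0.358%. CAGGTAG rests on 2 of the 500 peaks and was also higher in 3 of 3 replicates, by 0.0313 to 0.180 points. A missing word says only that these letters are not in the window. Both strands were searched for every word.

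Within the strongest peaks the extended site went with the transcript start. Of the 500 summits, 114 lay within 50 bp of a start, and 73 of these (64.0%, 54.9 to 72.3) held the extended site, against 60 of the other 386 (15.5%, 12.3 to 19.5). Among the 1264 other reproducible peaks as close to a start, 4.98% (3.91 to 6.33) held it. The difference of 59.1 points (49.8 to 67.3) was 49.0, 51.5 and 56.6 in replicates 1, 2 and 3, with a mean of 52.4 ± 3.86 (SD, n = 3; 3 of 3 replicates, exact two-sided sign-flip permutation test, p = 0.25). As a background, 2.19% of the most upstream starts of all 13945 coding genes had an extended site within 50 bp.

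Few of the sites were start codons read in reverse. Of the 139 extended sites in the strongest peaks, 3 overlapped an annotated start codon, and without such sites the share within 50 bp of a start was 62.3% against 4.51%, a difference of 57.8 points (48.5 to 66.2). Of the 113 sites at promoters, 64 (56.6%, 47.4 to 65.4) lay downstream of the nearest start, 47 of them within the first 50 bp, and 63 (55.8%, 46.6 to 64.6) read GCCATNTT on the sense strand. In the other promoter peaks, 45.4% (39.5 to 51.3) of 269 sites lay downstream and 28 were in the first 50 bp. Promoter peaks 51 to 500 bp from a start held the site in 14.7% of the strongest and 5.72% of the others, a smaller difference of 8.95 points (5.07 to 13.8). Away from promoters the shares were 17.3% and 5.70% (difference 11.6, interval 5.99 to 19.2).

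**Figure D3:**
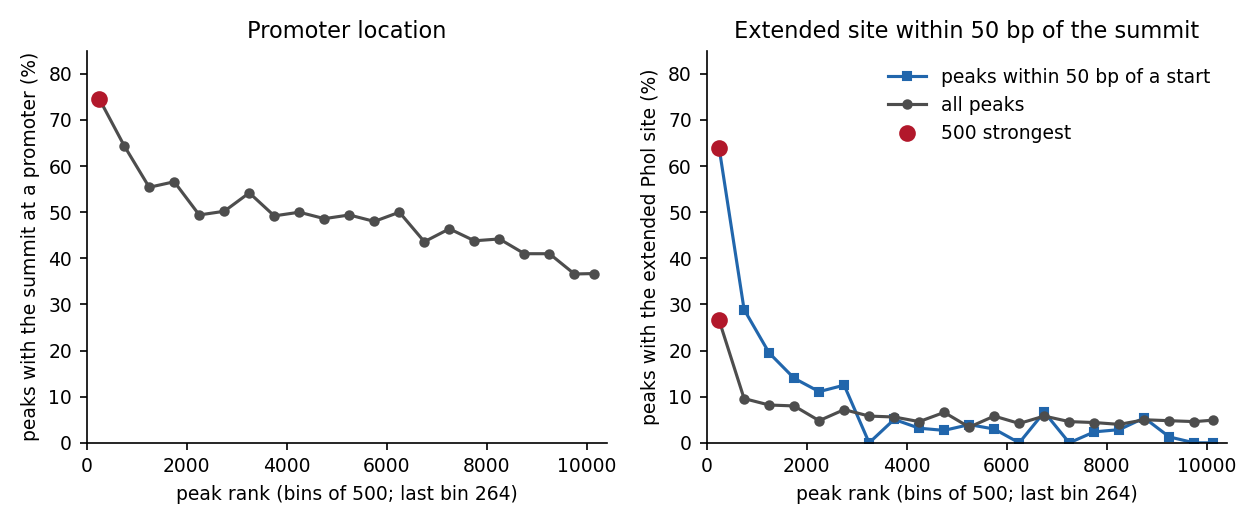
Left, share of peaks with the summit at a promoter (percent) by peak rank in bins of 500 over the reproducible list; right, share with the extended site within 50 bp of the summit, for all peaks (grey circles) and for peaks within 50 bp of a start (blue squares), with the strongest 500 in red. The share at starts falls from 64.0% in the strongest 500 to 28.9% in the next 500 ranks and 0% to 6.67% beyond rank 3000.

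The letters around the site followed a pattern of their own. Counting from 1 at the first G of GCCATNTT, the base just before it was C in 59.0% of the 139 sites in the strongest peaks, in 45.3% of the 589 sites in the other peaks and in 18.1% of the 29483 sites on the 6 chromosome arms. The next base out was C in 47.5%, 37.2% and 21.8% in the same order, and the third was G in 54.0%, 44.1% and 22.0%. The free base at position 6 was T in 44.6% and C in 27.3% of the sites in the strongest peaks, against 52% and 14.8% in the other peaks. The base after the site was G in 46.8%, 47.4% and 26%. These shares are a description, and arm-wide sites lie in all kinds of sequence. Of the sites within 200 bp of a summit, 48.4% in the strongest peaks and 32.6% in the others lay within 25 bp of it.

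Peaks with and without the site had different shapes. Promoter summits with an extended site had a median position 8 bp upstream of the start (-8), and those without lay at -123, with quartiles of -44.0 to 17.5 and -195 to -36.2 bp. The median width was 861 bp with the site and 476 bp without. Wide peaks with the site were seen in all 3 replicates, with median widths of 659, 735 and 764 bp among the strongest 500 of replicates 1, 2 and 3, against 420, 452 and 438 bp without. Widths come from the same reads as the signal value and are given without a test. Within ranks 1 to 100 alone the medians were 956 and 540 bp, and within 50 bp of a start 895 and 638 bp.

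**Figure D4:**
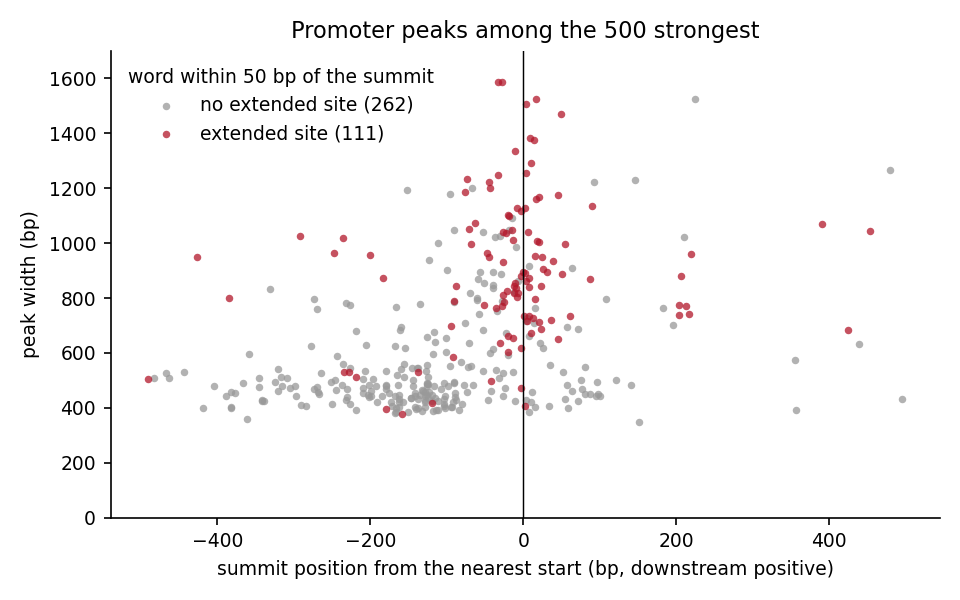
Width of each of the 373 promoter peaks among the 500 strongest (bp, vertical axis) against the position of its summit from the nearest start (bp, downstream positive), with the 111 that hold an extended site in red and the 262 that do not in grey. Most red points gather around the start at widths near their median, and most grey points lie upstream of it in narrow peaks.

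The strongest peaks were wide as a whole. Their median width was 510 bp (347 to 2024), against 361 bp for the other reproducible peaks, of which many carry the list's most common width of 420 bp (3372 peaks, 2 of them among the 500). There were 57 wider than 1000 bp, 51 at promoters and 43 with the extended site. The widest, 2024 bp, had its summit in a 3′ UTR and lay nearest to the start of CG33229 (rank 289). The next was an interval of 1587 bp on 3R that holds the summits of both wdn (rank 36) and Prp39 (rank 150), which encode a zinc-finger protein and a splicing factor. The narrowest were those of lncRNA:CR46102 (347 bp), org-1, a T-box gene (361 bp), and for, a cGMP-dependent kinase gene (373 bp).

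Base composition differed with the extended site and with distance from the start. The 101 bp at the summit held 45.3% ± 7.94 G and C (SD over 133 peaks) with the extended site and 30.2% ± 9.40 (SD over 367 peaks) without it. With the site's own letters left out the first value was 45.6%. Summits within 50 bp of a start had 45.4% ± 6.59 with the site (SD over 73 peaks) and 41.4% ± 9.68 without it (SD over 41 peaks). Farther from a start the values were 45.1% ± 9.38 (60 peaks) and 28.8% ± 8.37 (326 peaks), so the lowest content was that of peaks with neither a near start nor the site. The strongest 500 of the replicates gave 45.3% ± 0.810 with the site and 30.6% ± 0.439 without (SD, n = 3). Windows 500 bp away had 43.7% and 44.8%. The other reproducible peaks had 32.8% without the site and 43.7% with it, so a low content without the site was seen in both sets. The part of base composition in where the word can occur was not tested.

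**Figure D5:**
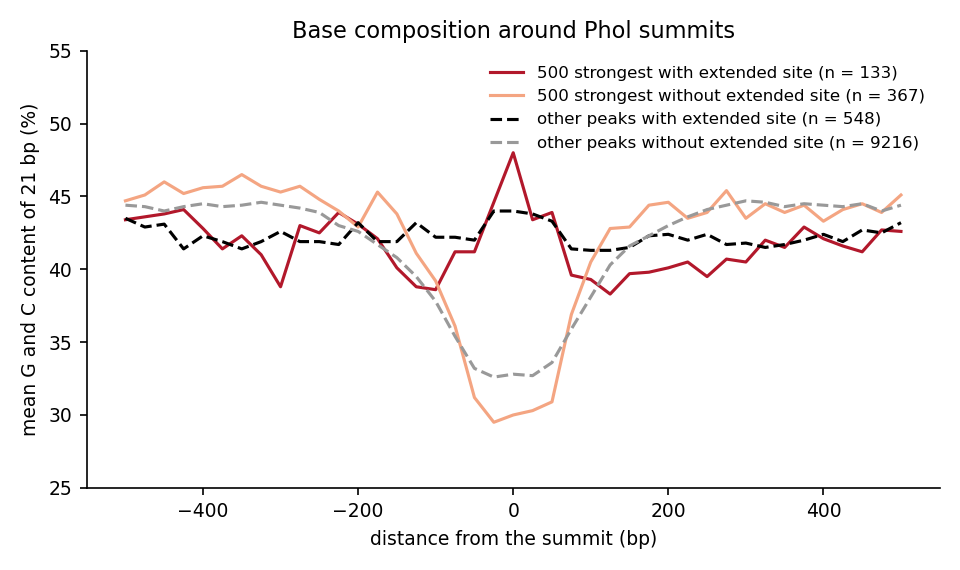
Mean G and C content (percent, in 21-bp windows; the axis starts at 25%) by distance from the summit (bp) for the 500 strongest peaks with and without an extended site (solid) and for the other reproducible peaks (dashed). For the strongest peaks without the site the content is lowest near the summit, with 29.5% at -25 bp; for those with it the content is 48.0% at the summit, between lower values of 38.6% at -100 bp and 39.3% at 100 bp.

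The promoters reached by these peaks belonged to 515 coding genes, 3.69% of the 13945 analysed, while any reproducible peak reached 40.8%. Of the 515, 133 carry only a CG number, and 41 noncoding genes were reached as well. A peak between a gene pair counts for both genes. Gene lists are given as counts beside those shares, with no test of enrichment. In all, 106 of the 515 were on one of 29 lists of gene functions and 409 on none.

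Ranks 21 to 60 showed the mix of functions. Of these 40 peaks, 33 lay at promoters, 13 held the extended site, and none took a place lower than 108 in any replicate. At the 33 promoter peaks, 16 summits lay within 50 bp of a start and 10 of these held the site. The chromatin genes included Cp190, a cofactor of insulator proteins (rank 22, chr3R:15274676-15275721; places 24, 17 and 26 in replicates 1, 2 and 3), and Scm, a Polycomb group gene (rank 27, chr3R:9637174-9637975; 18, 27 and 39). Next came brm, the ATPase of the Brahma complex (rank 32, chr3L:15982432-15983334; 32, 31 and 36, at a promoter shared with Arl1), and ph-p, a subunit of Polycomb repressive complex 1 (rank 35, chrX:2137090-2137598; 30, 33 and 33). The places of these peaks spread over at most 21 positions. pzg (rank 24), Ncoa6 (rank 34), wdn (rank 36), Chro (rank 37) and HmgZ (rank 60) belong to the same broad group of chromatin or DNA-binding proteins.

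Other peaks of these ranks lay close to starts and held the extended site. Taf4, a subunit of the general factor TFIID, stood at rank 44 with its summit 8 bp from the start and an extended site. da, the common partner of basic helix-loop-helix factors, stood at rank 42, 11 bp from its start, again with the site. Unr, an RNA-binding regulator of translation (rank 57, 6 bp), and Ref1, an mRNA export factor (rank 50, 23 bp), also held it. So did wdb, a regulatory subunit of protein phosphatase 2A (rank 48, 10 bp), and lin, a developmental regulator, in a peak that also reaches the start of the glycolytic gene Pgi (rank 39, 45 bp). Peaks without the site in this range often lay farther upstream, as at Art3 with mRpS10 (rank 25, 123 bp), px (rank 29, 199 bp) and Fkbp14 (rank 55, 129 bp).

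Metabolic and cell-biological genes were present too. They were mRpL41 (rank 21), Csk (rank 23), the sugar transporter gene Ugalt (rank 26), DUBAI (rank 30), CG5611 with the small GTPase gene Mtl (rank 38), Tcs5 with CHMP2B (rank 40) and RpS25 (rank 45). Others were mei-W68 with par-1 (rank 49), Pal1 (rank 54) and PNPase (rank 58). dhd with TrxT, a pair of germline thioredoxin genes, shared the peak at rank 52 with 2 extended sites. The CG-numbered genes with the nearest start in this range were CG12974, CG12236, CG5611, CG11050, CG3552, CG18549, CG31145 and CG3847. The 7 peaks away from promoters were nearest to CG11050 and HmgZ, to lncRNA:CR44619 (rank 31), cbt (rank 33) and lncRNA:CR46267 (rank 53), to lwr, which encodes the SUMO-conjugating enzyme (rank 47, in a 3′ UTR), and to Trl, which encodes the GAGA factor (rank 51, 1535 bp from the start).

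Polycomb and trithorax genes had shares several times that of all coding genes, which are counts without a test. Among genes with any reproducible peak at a start the Polycomb group had 32.1% and the trithorax and COMPASS list 22.6%, against 9.05%. Of 33 Polycomb group genes, 9 (27.3%) had one of the 500 at a start, against 3.69% of all coding genes. They were cg (rank 2), Jarid2 (8), Scm (27), ph-p (35), psq (151) and corto (330), with E(z), Su(z)12 and Pcl at ranks 334, 394 and 434. E(z) is the methyltransferase of Polycomb repressive complex 2. The trithorax and COMPASS list, of which many genes oppose Polycomb silencing, had 7 of 34 (20.6%). They were led by osa (11), brm (32), dom (67), kis (104), Bap60 (147) and fs(1)h (333). The methyltransferase genes trx, trr and Set1 were not among them, with their best peaks at ranks 3882, 1765 and 6391. dom is also on the list of remodellers below. Phol belongs to the Polycomb group itself, and genes of the Polycomb and trithorax groups were both reached.

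Remodelling and insulator genes also had shares above the 3.69% of all coding genes, as counts without a test. Of 22 genes of the CHD, ISWI and INO80 families, 5 (22.7%) had one: Chd1 (15), dom (67), Mi-2 (69), Ino80 (263) and pont (280). The list also held Ndf (9), a nucleosome-destabilizing factor outside these families, with which the count was 6 of 23 (26.1%). Ino80 and Pont are subunits of the INO80 complex, which in mammals works with the Phol homolog YY1. Of 21 genes on the insulator list, 6 (28.6%) had one: CTCF (7), Cp190 (22), pzg (24), wdn (36), Chro (37) and Clamp (159). That list is broad, and wdn is described above only as the gene of a zinc-finger protein. The pzg peak is shared with CG12974, whose start lies 7 bp from the summit. The share without pzg and wdn was not computed. Histone acetylation was at 2 of 28 (7.14%), Ada2b and Sirt6, where Sirt6 shares its peak with pont.

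Splicing regulators, the translation list and ribosomal proteins had shares above the background, and transfer RNA synthetases did not, again as counts without a test. Among genes with any reproducible peak at a start these were 36.4%, 22.2%, 18.1% and 4.17% in that order, against 9.05%. Of 27 SR proteins and other splicing regulators, 8 (29.6%) had one of the 500, among them fl(2)d (1), SC35 (68), B52 (71), Hrb98DE (134) and SF2 (218). Of 34 core spliceosome genes, 3 (8.82%) had one: SmD3 (12), Prp3 (69, shared with Mi-2) and Prp8 (191). The translation list had 8 of 40 (20%), led by Nacalpha (18), eIF4A (63), eIF1 (102), eIF3a (161), bic (247) and eIF6 (278). It is broader than initiation, elongation and release factors. Nacalpha encodes a subunit of the nascent polypeptide associated complex, and Tctp (358) the translationally controlled tumor protein. The share without such entries was not computed. The cytosolic ribosomal proteins had 15 of 93 (16.1%), led by RpS30 (14), RpL14 (19), RpS25 (45), RpS24 (72), RpL28 (102) and RpL21 (103). RpL28 and eIF1 share a peak. At 7 of the 15 genes the strongest peak held the extended site, against 148 of all 515 genes reached (28.7%). Transfer RNA synthetases had 1 of 32 (3.12%), SerRS, against 3.69% of all coding genes.

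Mitochondrial and energy genes gave a range of shares, not tested against each other. Among genes with any reproducible peak at a start, mitochondrial ribosomal proteins had 12.7% and oxidative phosphorylation 7.02%, against 9.05%. Mitochondrial ribosomal proteins had 7 of 75 (9.33%), led by mRpS16 (2), mRpL41 (21), mRpS10 (25), mRpS23 (86), mRpL23 (97) and mRpL24 (256). The peak of mRpS16 is also that of cg on the Polycomb list. Oxidative phosphorylation had 4 of 90 (4.44%), COX5A (255), blw (297), SdhC (358) and ATPsynC (465), a share near the background. SdhC shares its peak with Tctp of the translation list. For the 48 proteasome subunit genes, 31 had some reproducible peak and 0 had one of the 500.

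The other lists of general functions ranged from 3.70% to 17.2%, against 3.69% of all coding genes, as counts without a test. Counting only genes with any reproducible peak at a start, the share over all coding genes was 9.05%. On that basis protein phosphatases had 21.7%, nonsense-mediated decay 12.5%, RNA decay 10.5%, and general transcription and Mediator 10.3%. Mitosis and cohesin had 9.09%, DNA replication 8.82% and chaperones 8.70%, and the nuclear pore was lower still. The general transcription and Mediator list had 6 of 69 (8.70%), Taf4 (44), MED1 (89), CycT (93), MED8 (115), MED19 (237) and MED27 (497). Protein phosphatases had 5 of 29 (17.2%), Pp1-87B (5), ssh (10), wdb (48), sds22 (396) and wrd (466). DNA replication had 3 of 45 (6.67%), RnrS, CycE and geminin, and mitosis and cohesin 4 of 52 (7.69%), pds5, eco, tum and feo. RNA decay had 2 of 22 (9.09%), Not1 and Not3 of the deadenylase complex, and nonsense-mediated decay 1 of 9 (11.1%), Smg5. Chaperones had 2 of 30 (6.67%), Cdc37 and Hsp27, and the nuclear pore 1 of 27 (3.70%), Nup37, at a peak shared with RpS27. The strongest peak held the extended site at 4 of the 6 general transcription and Mediator genes, against 28.7% over the 515 genes. It did so at 1 of 5 phosphatase genes, 1 of 4 for mitosis and cohesin, and 1 of 2 for RNA decay. For DNA replication, chaperones, nonsense-mediated decay and the nuclear pore it was 0.

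On the 3 developmental lists together, of homeotic, segmentation and signalling genes, 6 of 109 (5.50%) had one of the 500 at a start, against 3.69% of all coding genes. Of 17 Hox genes and homeotic cofactors, 3 (17.6%) had one, abd-A (361), Dfd (425) and cad (478). The peaks of all 3 held the extended site, against 28.7% over the 515 genes reached. Of 34 segmentation and patterning factors, 17 had a reproducible peak and 0 had one of the 500. Of 58 signalling genes, 3 (5.17%) had one, spi (287), N (295) and pan (430). Among genes with any reproducible peak at a start, the homeotic list had 37.5% and the signalling list 6.25%, against 9.05%. Among neuronal genes elav (260) was the single gene of 28 (3.57%). Lists of differentiated functions had none: 0 of 179 chemoreceptors, 0 of 92 cuticle proteins, 0 of 21 muscle structural genes and 0 of 18 chorion, vitelline and yolk genes. Few of them had any reproducible peak at a start, at 4, 2, 4 and 0 genes in that order, so their absence is not particular to the 500.

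In the bithorax complex the strongest peaks lay away from coding starts. From Ubx to Abd-B there were 51 reproducible peaks, and 7 of them were among the 500. On 3R as a whole, the arm that holds the complex, 132 of 2395 reproducible peaks (5.51%) were among the 500. The difference between the complex and the arm was not tested. mir-iab-8 was the nearest start to rank 17 (places 12, 20 and 17 in replicates 1, 2 and 3), and lncRNA:CR46267 to rank 53 (chr3R:16948544-16949037; 49, 55 and 63). lncRNA:TS16 was nearest to rank 73 (chr3R:16811644-16812159; 57, 88 and 84), lncRNA:bxd to rank 169 (157, 187 and 160), and lncRNA:iab8 to ranks 170 and 491. Of the 7, the peak at abd-A was the single one at a coding start. Their summits held 44.6% to 62.4% G and C, and 4 of them held an extended site.

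Distal peaks among the strongest had a shorter median distance to a start than other distal peaks, a difference not tested. The 127 outside promoters had a median distance of 1521 bp, against 2973 bp for the 5057 others, and 22 (17.3%) lay more than 5 kb out, against 34.0%. The farthest was rank 479, in intergenic sequence 31938 bp from CG43245, followed by lncRNA:CR45025 (rank 472, 22186 bp), CG43245 again (rank 254, 19162 bp), sbb (rank 403, 18820 bp) and osp (rank 486, 14478 bp). Of the 10 farthest, 4 were in the bithorax complex, and CG13323 (rank 85, 11935 bp) was the remaining one. Genes of the developmental lists were the nearest genes of 7 of the 127 (5.51%, 2.70 to 10.9), against 4.77% for the other distal peaks. At promoters they were the nearest genes of 6 of the 373 (1.61%, 0.739 to 3.46), against 1.57% of the other promoter peaks.

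The arms of the genome carried unequal numbers. Per megabase there were 4.59 of the 500 on 2L, 4.03 on 2R, 3.31 on 3L, 4.11 on 3R, 2.72 on X and 0.742 on chromosome 4, where the single one is at pan. The X held 64 (12.8%, 10.2 to 16.0) against 19.4% of the other peaks, a difference of -6.58 points (-9.34 to -3.27). It was lower in 3 of 3 replicates, with 13.3% ± 0.702 against 19.3% ± 0.201 (SD, n = 3; exact two-sided sign-flip permutation test, p = 0.25). The embryos were of mixed sex, so copies of the X and binding per copy cannot be told apart.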

How the data were processed

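The authors deposited peak lists on dm6 for each of the 3 replicates and for the pooled replicates, and the pooled peaks kept by an irreproducible discovery rate threshold, per the readme notes that came with them. A control alignment was used, per those notes, and is not analysed here. Per the labels, chromatin was sonicated to 200 to 800 (unit not stated). For aligner, peak caller, versions and threshold, nothing is given in the sources used here. The deposited signal value, as the authors' caller gave it with no stated scale, ranked peaks within a list. The deposited −log10 q-value is at a shared maximum of 4.35 for all 500 peaks and was not used. Read depth is unknown. Whether the replicates came from separate embryo collections is not stated, so SDs measure the spread between these samples.

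Ties in signal value were ordered by chromosome, then summit. Summits were placed by Ensembl release 115 annotation on the release 6 genome into the first class that applied: promoter (a start of any gene within 500 bp), UTR (5′ before 3′), coding exon, the rest of gene bodies, and intergenic. Words were searched on both strands of 101 bp centred on the summit. Shares have 95% Wilson intervals and differences Newcombe intervals, both for counting error only, and the replicates were tested by an exact two-sided sign-flip permutation test. Python 3.11.15, NumPy 2.4.6, SciPy 1.17.1 and matplotlib 3.10.9 were used. The steps were tested on simulated data.

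The 500 peaks, the 29 gene lists and the comparisons were chosen with earlier results of these data known. Genes named are those of ranks 21 to 60, up to 6 of each list by rank, the farthest, the widest and narrowest, those with most spread, those at the limit and those with 2 or more sites. The other genes of a short count, the genes around phol and those of the bithorax complex were named after their values were seen. So were the comparisons by distance of 50 bp from a start, by width, by letters around the site and by base composition. List symbols with no match among coding genes are not used here. After results were seen, 3 entries were taken off lists as misassigned (Pcf11, trol and hay). Some genes that this rule names are not reported here.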

Additional observations from a re-analysis of the deposited data

How the results depend on the processing

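Of the 59 alternatives, 24 left a result about the same and 35 moved it, judged by the SD between replicates or, for genes reached, by a ratio. None reversed a difference between the strongest and the other peaks. The shares, gene counts and widths cannot be negative, so for them a reversal was not possible. The promoter share (74.6%) was 57.0% with a distance of 200 bp, 83.2% with 1000 bp, 71.2% with coding starts only, 80.0% in the strongest 250 and 69.5% in the strongest 1000. Its difference from the other peaks (26.4 points) was 20.7 with 200 bp, 31.3 for the strongest 250 and 22.2 for the strongest 1000. The share with GCCATNTT (26.6%) was 16.2% within 25 bp, 32.0% within 100 bp, 35.2% in the strongest 250 and 18.1% in the strongest 1000, and its difference (21.0 points) was 12.7, 24.3, 29.3 and 12.7 in that order. The difference among peaks within 50 bp of a start (59.1 points), whose alternatives were chosen after seeing the data, was 65.3 within 25 bp of a start, 43.3 within 100 bp, 33.4 with the word within 25 bp of the summit, 63.3 for the strongest 250 and 50 for the strongest 1000. The genes reached (515) were 287 for the strongest 250 and 948 for the strongest 1000, by construction. They were 367 with a distance of 200 bp, 601 with 1000 bp and 468 with the most upstream start of each gene only. The ratio judged these as about the same. The shares of the gene lists were not computed at these distances. The share in all 3 replicates (82.6%) was 84.4% for the strongest 250 of each list and 84.3% for the strongest 1000. The median width (510 bp) was 445, 476 and 474 bp in replicates 1, 2 and 3, 622 bp for the strongest 250 and 466 bp for the strongest 1000. The cause of the other moves was not tested.

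Leaving out replicate 1, 2 or 3 and choosing 500 peaks by their mean place in the other replicates kept 461 to 464 of the 500. The promoter share was then 74.8% to 76.2% and its difference 26.6 to 28.1 points. The share with GCCATNTT was 25% to 26% and its difference 19.3 to 20.4 points, the difference at starts was 56.9 to 58.7 points, the genes reached 489 to 500, and the median width 528 to 543 bp. The comparisons of peak ranks are made within each replicate, and no fit with a replicate block was made because the replicates form a single group. Unknown read depth limits what can be said of single peaks and of the order near rank 500, and 3 replicates cannot give a p under 0.25.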

Other observations

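Some of the strongest peaks came in close groups. Within 5 kb of each other lay 63 of the 500, in 27 pairs and 3 groups of 3. The groups with the best-ranked peaks were Uhg2 (rank 3) with RpS2 (rank 452), SmD3 (rank 12) with a peak 690 bp from the start of Oda (rank 149), which encodes ornithine decarboxylase antizyme, and a pair beside lncRNA:CR44619 (ranks 31 and 136). They also included cbt (ranks 33 and 399) and Ncoa6 (rank 34) with lncRNA:CR44985 (rank 318). The interval of 55 of the 500 (11%) held another reproducible summit, against 4.05% of the other peaks, a measure that wide peaks raise.

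Of the 373 promoter peaks, 17 had no coding start within 500 bp. They lay at starts of long noncoding RNAs in most cases, the best-ranked being lncRNA:CR44339 (rank 133), lncRNA:CR44619 (rank 136) and lncRNA:iab8 (rank 170). Others were at an antisense RNA, a snoRNA and mir-2496 (rank 299). Their share of promoter peaks, 4.56% (2.86 to 7.18), was close to the 4.84% of the other promoter peaks. Of the 41 noncoding genes at promoter peaks, 4 were snoRNA genes and 1 was a transfer RNA gene.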
